A study of Mus musculus with 6 samples.

Results

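The mesenteric library made 24 h after injection of ID8 cells was compared with the mesenteric library of naive mice, gene by gene. The genes compared were those with an FPKM (fragments per kilobase of transcript, relative to the aligned fragments of the library, a level already divided by gene length) of at least 10 in either library. Of the 23946 genes listed, 6842 met this, of which 6065 reached the level in both libraries, 413 in the 24 h library alone and 364 in the naive library alone. At the edge of the rule, Pi4kb (7.94 in naive and just over 10 at 24 h) was inside, and Tspyl2 (just under 10 in naive and 6.73 at 24 h) was outside.

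Cells positive for CD45, CD11b and F4/80, the surface markers used here for macrophages, were sorted from the omentum and from the mesentery of C57BL/6 mice, and their RNA was sequenced. No mutant allele was used, and the mice were female. The series holds 6 libraries, 1 for each tissue (OM, omentum; MY, mesentery) that was naive, or taken 24 h or 7 d after intraperitoneal injection of ID8, a mouse ovarian carcinoma line of C57BL/6 origin. The tissues came from 9 mice handled as groups of 3, so a library is taken here to stand for 3 pooled animals, and whether the omental and mesenteric cells of a time came from the same animals is not stated outright. The libraries used below as controls are labelled naive, that is without ID8 cells, and the methods also describe mice given PBS in parallel, whose part in these libraries is not stated. With 1 library on each side there was no replicate error and no test, so every difference below describes 2 libraries, and a gene is called higher or lower only when log2(FPKM + 1) differed by at least 1 (2-fold).

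Mesenteric fat holds macrophages, lymphatic vessels and lymph nodes. Lymph nodes contain B, T and plasma cells as well as macrophages of the sinuses, which carry C-type lectins and scavenger receptors. Macrophages that meet injury, microbes or dying cells make acute phase proteins, chemokines of the CC family and opsonins such as complement C1q, and their resting and alternatively activated states are marked by Mrc1 and Retnla.

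Between the mesenteric libraries, 204 genes were higher at 24 h (2.98% of the 6842) and 123 were lower (1.80%), while 6515 lay within 2-fold. The median difference was 0.03, with quartiles of -0.21 and 0.28. This balance depended on how the libraries were scaled: with each library rescaled to a sum of 1000000 there were 163 higher and 191 lower genes, and with upper quartile scaling 127 and 251, with the median over all genes at -0.09 and -0.19. Genes at the level in both libraries made up 107 of the higher and 73 of the lower genes. For the others, here and in each list below, the direction was fixed in advance by the level rule. Among genes other than short RNA genes, 22 were at least 4-fold higher and 5 at least 4-fold lower. In bulk RNA, a change in the number of cells of a type and a change in RNA per cell cannot be told apart.

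The naive library summed to 526887 FPKM and the 24 h library to 572553, and the commonest ratio of low values put the 24 h library at 1.22 times the depth of the naive one. The naive library listed 6556 genes at 0 and the 24 h library 8295. FPKM do not give the reads a value rests on, so depth in reads is unknown. Of the sort markers, Ptprc (CD45) was 188.4 FPKM in naive and 157.8 at 24 h, Itgam (CD11b) was 32.63 and 52.01, and Emr1 (F4/80) was 20.54 and 68.65. Markers of lymphocytes were also present in both sorted samples. The 19 NK cell markers summed to 5501 FPKM in naive and 3807 at 24 h, the 17 T cell markers to 1665 and 973.3, the 14 B cell markers listed in the table to 1349 and 902.6, and the 14 macrophage markers to 4608 and 7680. The mesenteric cells therefore did not have the transcripts of macrophages alone, and values below are given for the sorted sample as a whole. The part of this mixture in the differences that follow was not tested.

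**Figure D1:**
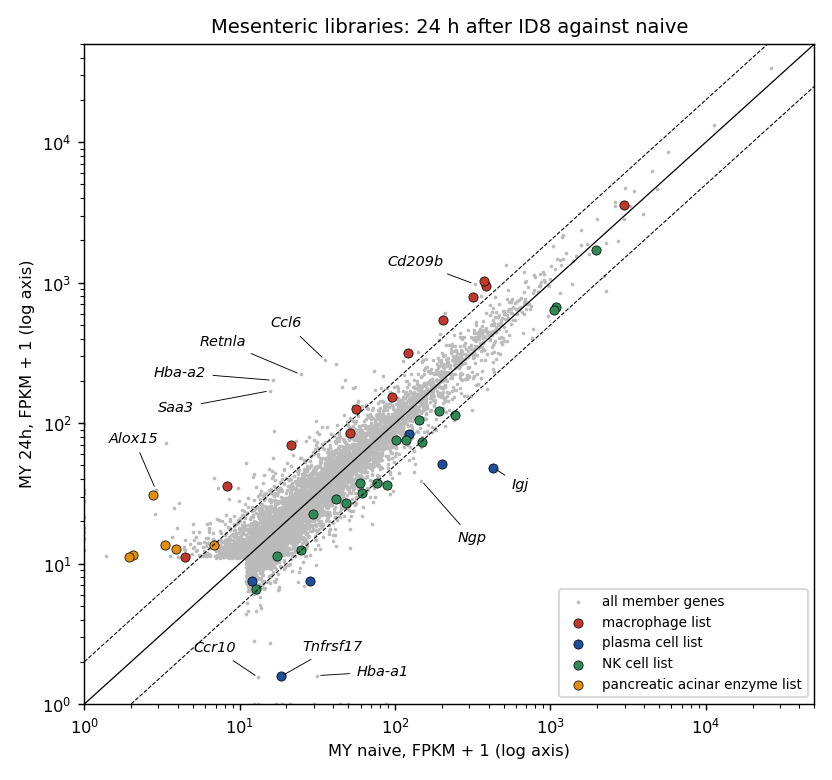
FPKM + 1 of the 6842 genes in MY naive (x axis) and MY 24h (y axis), both on log axes, 1 point a gene, with the solid line at equality and dashed lines at 2-fold. Points of the macrophage list lie above equality, points of the NK cell list below it, and Igj and Tnfrsf17 of plasma cells lie among the lowest relative to naive.

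The sorted mesenteric sample had more transcript of macrophage genes at 24 h. All 12 macrophage markers that reached the level were above their naive value, 9 of them at least 2-fold, and their median difference was 1.33 against 0.03 over all genes. Of these markers, 10 reached the level in both libraries, and for the others a higher 24 h value was fixed in advance. Csf1r, the receptor for the growth factor of macrophages, was 120.9 FPKM in naive, 313.2 at 24 h and 192.1 in MY 7d (difference at 24 h 1.37). Emr1 differed by 1.69 and Mertk, a receptor for dying cells, by 1.32 (3.467 and 10.15). Cd14, a coreceptor for bacterial lipopolysaccharide, showed the largest difference of the list, from 7.334 to 34.88 FPKM (2.11), and was back at 11.17 in MY 7d. Lyz2, the lysozyme gene and the most abundant of the list, stayed near its level with 2968 FPKM in naive and 3578 at 24 h (0.27).

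Complement C1q, which coats dying cells and immune complexes, was among the most abundant of these products. C1qa was 315.0 FPKM in naive and 794.7 at 24 h, C1qb 383.9 and 939.4, and C1qc 374.6 and 1030. Their sum went from 1073 to 2764 FPKM (1.36) and was 1192 in MY 7d, so the 3 chains moved together and were near the naive level again at 7 d. Of 12 complement genes at the level, 5 were higher and none lower (median 0.76). The 5 were the C1q chains, the anaphylatoxin receptor C5ar1 (4.248 and 14.39 FPKM, 1.55) and the terminal component C6 (11.33 and 42.73, 1.83). Cd55, which protects cells from complement, was 23.63 and 14.74 FPKM (-0.65). Of 7 Fc receptor genes, Fcgr4 (3.449 and 13.66 FPKM, 1.72), Fcgrt, the neonatal Fc receptor (53.93 and 178.8, 1.71), and Fcgr3 (56.68 and 140.2, 1.29) were higher, while Fcer2a of B cells was 51.83 and 25.86 (-0.98). C5ar1 and Fcgr4 reached the level at 24 h alone, so a rise was fixed in advance for them.

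Scavenger and lectin receptors that lay higher in the mesentery than in the omentum were among the higher genes. Cd209b, a SIGN-R1 type lectin of marginal zone and lymph node macrophages, lies at chr8:3917657-3926844 on the minus strand (mm9, NCBIM37). It was 323.6 FPKM in MY naive, 975.7 in MY 24h and 457.8 in MY 7d (1.59 at 24 h), but 2.59 in OM naive and 3.95 in OM 24h. Marco, a scavenger receptor for bacteria, was 202.4, 537.3 and 208.1 FPKM in MY naive, 24 h and 7 d (1.40), against 10.5 in OM naive. Cd5l, a secreted protein of tissue macrophages, went from 29.81 to 103.3 FPKM (1.76), and Vcam1, an adhesion molecule, from 33.06 to 93.49 (1.47). Siglec1, the sialic acid receptor CD169 of sinus macrophages, was 18.17 and 46.11 FPKM (1.30). These genes all had their highest mesenteric value at 24 h. Of the 13 C-type lectin genes at the level, 4 were higher and none lower (median 0.64): besides Cd209b they were Mrc1 (5.455 and 18.51 FPKM, 1.60), Clec10a (10.33 and 28.39, 1.38) and Cd209e (4.566 and 10.24, 1.01). Mrc1 and Cd209e reached the level at 24 h alone, so a rise was fixed in advance for them. The activation marker Cd69, also a C-type lectin and carried by lymphocytes, was 36.76 and 19.09 (-0.91).

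Genes of the acute inflammatory response of myeloid cells had some of the largest differences. Of 20 such genes at the level, 9 were higher and 1 lower, with a median of 0.93. Saa3, an acute phase serum amyloid made by macrophages (chr7:53967368-53971046, minus strand, mm9), was 14.64 FPKM in naive, 169.0 at 24 h and 19.18 in MY 7d, a difference of 3.44 at 24 h. Its level in the omentum was 194.1 FPKM in OM naive and 742.6 in OM 24h. Wfdc17, a small secreted inhibitor of activation, was 44.90 and 180.1 FPKM (1.98), Ifitm2 111.5 and 276.4 (1.30), Slpi, a leukocyte protease inhibitor, 41.22 and 95.41 (1.19), and Lrg1 10.28 and 24.49 (1.18). The exception was Lcn2, an iron-sequestering neutrophil protein, with 49.47 FPKM in naive and 19.28 at 24 h (-1.32). Classical cytokine genes did not share these large differences: of 11 inflammatory cytokine and inflammasome genes none was 2-fold changed. Over all genes 2.98% were higher and 1.80% lower, so none of 11 is near that share. Still, 10 of the 11 lay above naive, with a median of 0.49 against 0.03 over all genes. Il1b alone lay below, at 21.68 and 20.49 FPKM (-0.08), and Nfkbia, an inhibitor induced by NF-kB, was 270.7 and 397.6 (0.55). Mpeg1, which encodes the pore-forming perforin-2 of phagocytes, was 9.967 FPKM in naive, 50.76 at 24 h and 31.08 in MY 7d (2.24).

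Chemokine genes were selective. Only 14 of 41 chemokine ligands reached the level, and 5 of these were higher and 1 lower (median 0.54). Ccl9 and Pf4 reached the level at 24 h alone, so a rise was fixed in advance for them. Ccl6, a CC chemokine of macrophages at chr11:83401384-83406589 on the minus strand (mm9), was 34.29 FPKM in MY naive, 281.7 in MY 24h and 81.70 in MY 7d, a difference of 3.00 at 24 h. Its neighbour Ccl9, at chr11:83386421-83392138 on the same strand, went from 6.287 to 33.62 FPKM (2.25) and was 8.382 in MY 7d. Both were more abundant in the omentum, with Ccl6 at 777.0 in OM naive and 1901 in OM 24h. Pf4, the platelet chemokine also made by macrophages, went from 2.789 to 23.95 FPKM (2.72), Ccl17, a ligand of CCR4, from 20.98 to 58.67 (1.44), and Cxcl13, which attracts B cells, from 12.64 to 31.63 (1.26). Xcl1, made by NK and CD8 T cells, was the lower ligand, at 87.29 and 35.21 FPKM (-1.29). Ccl3, Ccl4, Ccl5 and Cxcl10 all lay below their naive value by less than 2-fold, between -0.21 for Ccl5 and -0.70 for Cxcl10. Of the 12 receptors at the level, Ccr3, the eotaxin receptor of eosinophils, was higher (0.3715 and 10.39 FPKM, 3.05) and Ccr10 was lower. Ccr3 reached the level at 24 h alone and Ccr10 in naive alone, so the direction was fixed in advance for both. Ccr1, which binds Ccl6 and Ccl9, was below the level, at 2.809 FPKM in naive and 8.584 at 24 h (1.33).

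Retnla, a secreted marker of alternatively activated macrophages (chr16:48842665-48844574, plus strand, mm9), was 23.64 FPKM in naive, 221.3 at 24 h and 5.967 in MY 7d, a difference of 3.17 at 24 h. In the omentum Retnla was far more abundant and went the other way by less than 2-fold, with 3681 FPKM in OM naive and 2402 in OM 24h. Fn1, the gene for fibronectin, had 1.870 FPKM in naive, 21.39 at 24 h and 2.990 in MY 7d (2.96). Both transcripts had their highest mesenteric value at 24 h. Of 10 alternative activation genes at the level, 5 were higher and none lower (median 1.02), the others being Mrc1, Ccl17 and Clec10a. Tgm2, often used with them, was 30.86 and 26.19 FPKM (-0.23), and Ccl22 was 199.5 and 317.0 (0.67). Fn1 and Mrc1 reached the level at 24 h alone, so a rise was fixed in advance for these 2 genes. Over the 17 list genes that reach an FPKM of 1, the median was 0.77.

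A list of genes that make and bind lipid mediators was drawn up after values had been seen. Of its 15 genes at the level, 7 were higher, 8 within 2-fold and none lower, with a median of 0.99. Of these genes, 11 reached the level in both libraries. The others, among them Alox15 and Ltb4r1 at 24 h alone, had their direction fixed in advance. Alox15, the 12/15-lipoxygenase of peritoneal macrophages and eosinophils (chr11:70157654-70165533, minus strand, mm9), went from 1.885 to 32.62 FPKM (3.54) and was 15.54 in MY 7d. Ltc4s, the synthase of leukotriene C4, went from 14.45 to 46.51 (1.62), Ltb4r1, the receptor of leukotriene B4, from 5.196 to 18 (1.62), Alox5ap, the partner of 5-lipoxygenase, from 57.03 to 143.3 (1.31), and Tbxas1, the thromboxane synthase, from 13.23 to 36.28 (1.39). Lta4h, which makes leukotriene B4, was 91.17 and 77.77 FPKM (-0.23). The CD300 family of lipid-binding receptors, also listed afterwards, had 4 of 5 genes higher, of which Cd300lb was the furthest (5.310 and 16.56 FPKM, 1.48) and Cd300lf stayed within 2-fold (12.16 and 20.66, 0.72). Only 3 of the 5 reached the level in both libraries. Cd300lb reached it at 24 h alone, so a rise was fixed in advance for this gene.

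Among 12 iron handling genes at the level, 4 were higher and 1, Lcn2, was lower (median 0.66). The higher genes were Cp, the ferroxidase ceruloplasmin (11.67 and 34.15 FPKM, 1.47), Trf, transferrin (115.1 and 316.5, 1.45), Slc11a1, the phagosomal metal transporter (31.24 and 82.92, 1.38), and Slc40a1, the iron exporter ferroportin (14.97 and 32.96, 1.09). Hmox1, which degrades heme, was 52.77 and 102.4 FPKM (0.94), and the ferritin chains Ftl1 and Fth1 differed by 0.59 and 0.40. Of 20 lipid uptake and lysosomal genes 4 were higher and none lower (median 0.65), with Scarb1, a receptor for lipoproteins, at 30.59 and 85.09 FPKM (1.45) and Plin2, which coats lipid droplets, at 87.26 and 177.9 (1.02). Apoe, the most abundant of them, was 1202 and 2166 FPKM (0.85).

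**Figure D2:**
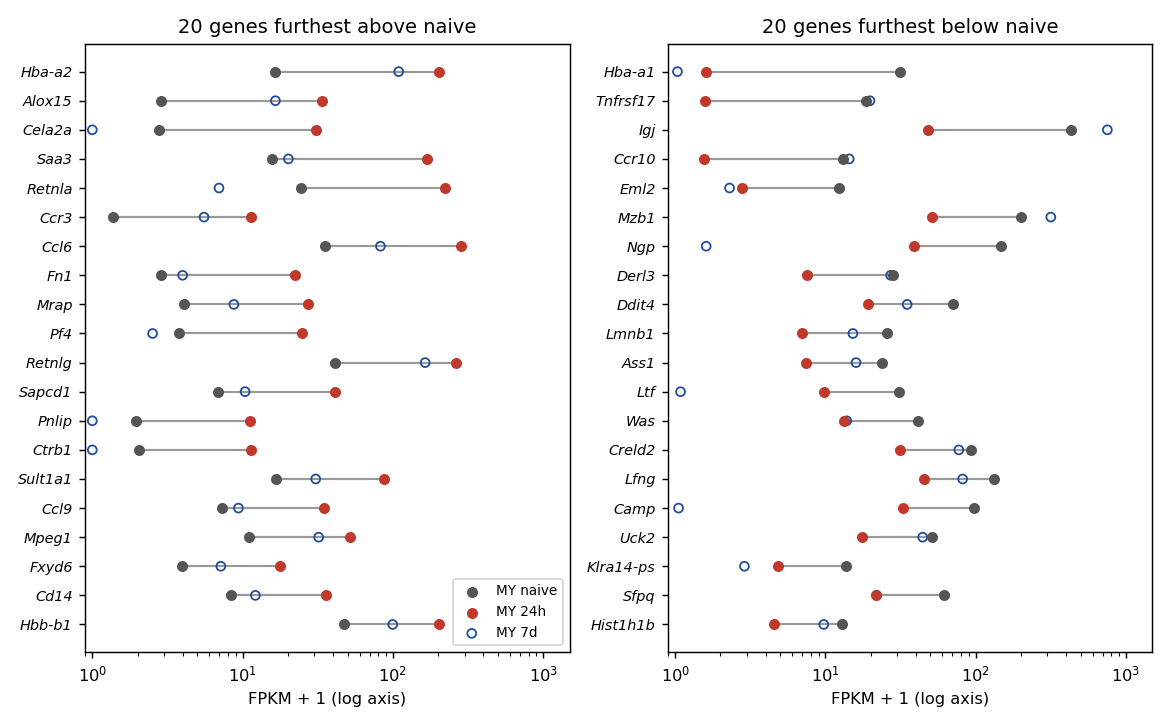
The 20 genes furthest above (left) and furthest below (right) the naive library, short RNA genes left out, as FPKM + 1 on a log axis. Grey points are MY naive, red points MY 24h and open blue circles MY 7d, 1 library each. Saa3, Retnla, Fn1 and Pf4 were near or below their naive level in MY 7d, and Igj and Mzb1 were above it.

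The plasma cell list had the lowest median of the lists. All 6 plasma cell genes at the level were below naive, 4 of them at least 2-fold, with a median of -1.94. Tnfrsf17, Derl3 and Irf4 reached the level in the naive library alone, so a lower 24 h value was fixed in advance for them. Igj, Mzb1 and Xbp1 reached it in both libraries and differed by -3.15, -1.97 and -0.58. Over the 8 list genes that reach an FPKM of 1, the median was -1.62. The list summed to 817.7 FPKM in naive, 199.4 at 24 h and 1299 in MY 7d. Igj, the J chain that joins secreted IgA and IgM (chr5:88949537-88956916, minus strand, mm9), was 428.5 FPKM in naive, 47.24 at 24 h and 750.5 in MY 7d (-3.15 at 24 h). Tnfrsf17, the survival receptor BCMA, was 17.49, 0.5776 and 18.77 FPKM (-3.55), and Mzb1, a chaperone of antibody secretion, was 198.1, 49.79 and 315.0 (-1.97). Ccr10, which guides IgA plasma cells to mucosa, was 12.15, 0.5499 and 13.39 FPKM (-3.09). For these 4 genes the 24 h value was the lowest of the mesenteric libraries and the 7 d value the highest. Xbp1 and Irf4, transcription factors that other cells use too, stayed within 2-fold (-0.58 and -0.69). B cell genes differed less: all 11 at the level lay below naive but none by 2-fold (median -0.60), with Cd79a at 336.5 and 221.9 FPKM (-0.60) and Ms4a1 at 88.82 and 47.08 (-0.90).

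In a list of protein folding genes of the endoplasmic reticulum, drawn up after values had been seen, 9 of 35 genes at the level were lower, none was higher and 31 lay below naive, with a median of -0.54. Derl3 was 27.26 FPKM in naive, 6.496 at 24 h and 26.16 in MY 7d (-1.91). Creld2 was 92.30, 30.12 and 76.18 (-1.58), and Hsp90b1, the chaperone GRP94, was 311.1, 124.0 and 266.9 (-1.32). Calr, a calcium-binding chaperone, was 390.4, 173.4 and 322.9 FPKM (-1.17), and Pdia6, a disulfide isomerase, 146.5, 66.50 and 147.0 (-1.13). The other 4 lower genes were Pdia4 (-1.25), Txndc5 (-1.21), Manf (-1.21) and Sdf2l1 (-1.06). Hspa5, the main chaperone BiP, was 289.3 and 155.3 FPKM and so just short of 2-fold (-0.89). Sec61b, of the translocation pore, was on the other side of 0 with 435.8 and 570.9 FPKM (0.39). Derl3 and Xbp1 also belong to the plasma cell list, and Hspa5 and Hsp90b1 to the heat shock list.

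The unfolded protein response acts on many of these genes through a promoter sequence known as the ER stress response element, spelled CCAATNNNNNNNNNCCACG. It was searched on both strands in RefSeq promoters (GRCm38.p6, 250 bases before to 50 after the start), and overlaps with the other motifs searched were not removed. It was found in 39 of 32851 promoters (0.119%), in 11 of the 5576 promoters matched to the 6842 genes (0.197%), and in 10 of the 32 matched to the protein folding list (31.2%). The 10 genes with the element had a median difference of -1.03, with 5 of them 2-fold lower, against -0.34 and 3 of 20 for genes of the list at the level without it. These values describe the list and carry no test. The 5 lower genes with the element are shown, with Hspa5 as the gene for which the element is best known and Ero1lb as the gene with the element that lay above naive (0.23). Each line runs 5′ to 3′ along the gene's strand with the element in capitals, which reads in reverse complement where it sits on the other strand. The windows are chr10:75893222-75893280 (plus strand) for Derl3, chr15:88819500-88819558 (plus) for Creld2, chr10:86705618-86705676 and chr10:86705513-86705571 (minus) for the sites of Hsp90b1, chr8:84847055-84847113 (minus) for Calr, chr12:17266471-17266529 (plus) for Pdia6, chr2:34772005-34772063 (plus) for Hspa5 and chr13:12565662-12565720 (plus) for Ero1lb.
Derl3: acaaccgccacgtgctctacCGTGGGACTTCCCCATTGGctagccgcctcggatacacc
Creld2: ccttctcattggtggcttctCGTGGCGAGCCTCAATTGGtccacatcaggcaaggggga
Hsp90b1, upstream site: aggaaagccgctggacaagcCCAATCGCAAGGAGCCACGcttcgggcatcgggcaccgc
Hsp90b1, site nearer the start: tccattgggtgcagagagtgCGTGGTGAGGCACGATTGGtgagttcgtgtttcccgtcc
Calr: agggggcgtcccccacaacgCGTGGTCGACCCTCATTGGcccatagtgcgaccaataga
Pdia6: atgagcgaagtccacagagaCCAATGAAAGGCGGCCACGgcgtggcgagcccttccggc
Hspa5: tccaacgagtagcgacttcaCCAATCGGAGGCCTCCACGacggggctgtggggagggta
Ero1lb: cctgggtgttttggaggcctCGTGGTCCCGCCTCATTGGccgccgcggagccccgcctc

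In Derl3, Creld2, Calr and Ero1lb the element was on the strand opposite to the gene, and in Pdia6 and Hspa5 on the same strand. Hsp90b1 held the element on each strand, 193 and 88 bases before its start. A match is a sequence found and no evidence that a factor was bound there. Spelled motifs of other pathways were GAAANNGAAA, of the interferon stimulated response element, in 3.44% of all promoters and 4.47% of those matched to the 6842 genes, and GGGNNTTTCC, of NF-kB sites, in 1.63% and 2.10%. Only 152 of the 204 higher and 92 of the 123 lower genes could be matched to a promoter, so that a share over those sets is not given.

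**Figure D3:**
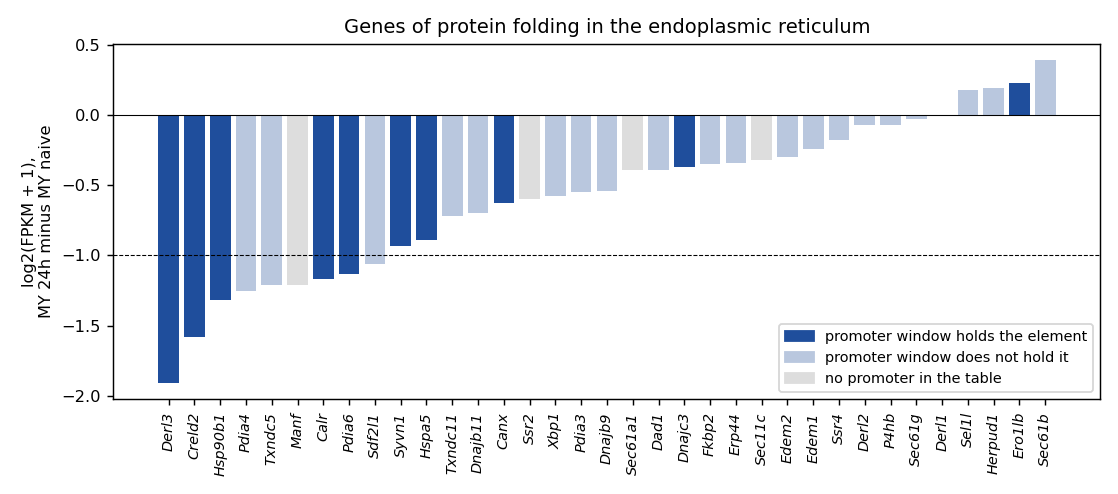
Difference in log2(FPKM + 1), MY 24h minus MY naive, for the 35 protein folding genes of the endoplasmic reticulum at the level, 1 bar a gene. Dark bars are the 10 genes whose promoter window holds the ER stress response element, light blue bars the 20 whose window does not, and grey bars genes with no promoter matched, and the dashed line marks 2-fold lower.

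All 19 NK cell genes lay below naive, 5 of them 2-fold lower and 14 within 2-fold (median -0.71). Ncr1, the NKp46 receptor, was 148.3 FPKM in naive, 72.91 at 24 h and 54.41 in MY 7d (-1.01), Il2rb, a chain of the receptors for IL-2 and IL-15, 243.0, 112.9 and 158.0 (-1.10), and Gzma, a granule protease, 1092, 667.1 and 449.3 (-0.71). Of 21 Ly49, NKG2 and related receptors, 4 were lower, among them Klre1 (121.8 and 53.72 FPKM, -1.17) and Klra18 (50.69 and 22.74, -1.12). Ly49 genes are near-identical copies, so their FPKM are uncertain for single genes. Among 17 T cell genes, 2 were lower, 15 were within 2-fold and 15 in all lay below naive (median -0.72), with Cd3e at 237.4, 103.6 and 255.5 FPKM (-1.19) and Cd4 at 47.81 and 49.50 (0.05). Ncr1 and Gzma had their lowest mesenteric value in MY 7d, whereas Il2rb was between its other values there and Cd3e was above naive.

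Of 9 neutrophil genes at the level, 4 were lower, 3 higher and 2 within 2-fold. The lower genes encode granule proteins and, besides Lcn2, were below an FPKM of 1 in MY 7d: Ngp was 146.5, 38.04 and 0.6081 FPKM (-1.92 at 24 h), Camp 95.66, 31.98 and 0.05286 (-1.55), and Ltf, lactoferrin, 29.96, 8.838 and 0.08477 (-1.65). The alarmins S100a8 and S100a9, the most abundant of the list, lay below naive by less than 2-fold (-0.40 and -0.81). The higher genes were Retnlg, Mmp9 and Csf3r: Retnlg was 40.48, 263.1 and 163.1 FPKM (2.67), Mmp9 10.09, 22.10 and 12.74 (1.06), and Csf3r, the receptor of G-CSF, 5.992, 13.38 and 6.458 (1.04). Csf3r reached the level at 24 h alone and Ltf in naive alone, so their direction was fixed in advance. The list's median of -0.81 over 9 genes became 0.06 when list genes with an FPKM of 1 or more were taken.

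Of 28 cell cycle genes at the level, 4 were lower and 26 lay below naive (median -0.68): Ccna2, cyclin A2, was 15.97, 6.389 and 24.96 FPKM in MY naive, 24 h and 7 d (-1.20), Rrm2, of ribonucleotide reductase, 36.38, 16.07 and 58.63 (-1.13), Mcm2, of the replication helicase, 36.97, 16.53 and 41.22 (-1.11), and Ube2c 43.27, 20.57 and 46.27 (-1.04). Each of the 4 was above its naive level in MY 7d. Heat shock genes lay below naive for 13 of 15, 2 of them 2-fold lower (median -0.54). Apart from Hsp90b1 the lower gene was Hsph1 (20.85 and 7.892 FPKM, -1.30).

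Cytoskeletal and RNA-binding genes, in lists also written after values were seen, held further lower genes. Was, the Wiskott-Aldrich protein that drives actin branching, was 40.56 FPKM in naive, 12.31 at 24 h and 12.85 in MY 7d (-1.64), and Actr2, Actn1, Vasp, Fmnl1, Wipf1, Cap1 and Myh9 differed by between -1.04 and -1.23. These made 8 lower and no higher genes of 38 (median -0.26), while Actb was 2619 and 3776 FPKM (0.53). Of 41 splicing and RNA-binding genes 6 were lower, led by Sfpq (60.66, 20.78 and 20.89 FPKM, -1.50), and 2 were higher, the cold-inducible Cirbp (72.03, 235.9 and 179.0, 1.70) and Rbm3 (73.74, 171.7 and 200.4, 1.21). For Was, Sfpq, Cirbp and Rbm3 the 7 d value was on the same side of naive as the 24 h value. Ddit4, an inhibitor of mTORC1, went from 69.83 to 18.11 FPKM (-1.89) and was 33.97 in MY 7d. Fkbp5, which glucocorticoids induce, went from 15.08 to 44.68 (1.51).

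**Figure D4:**
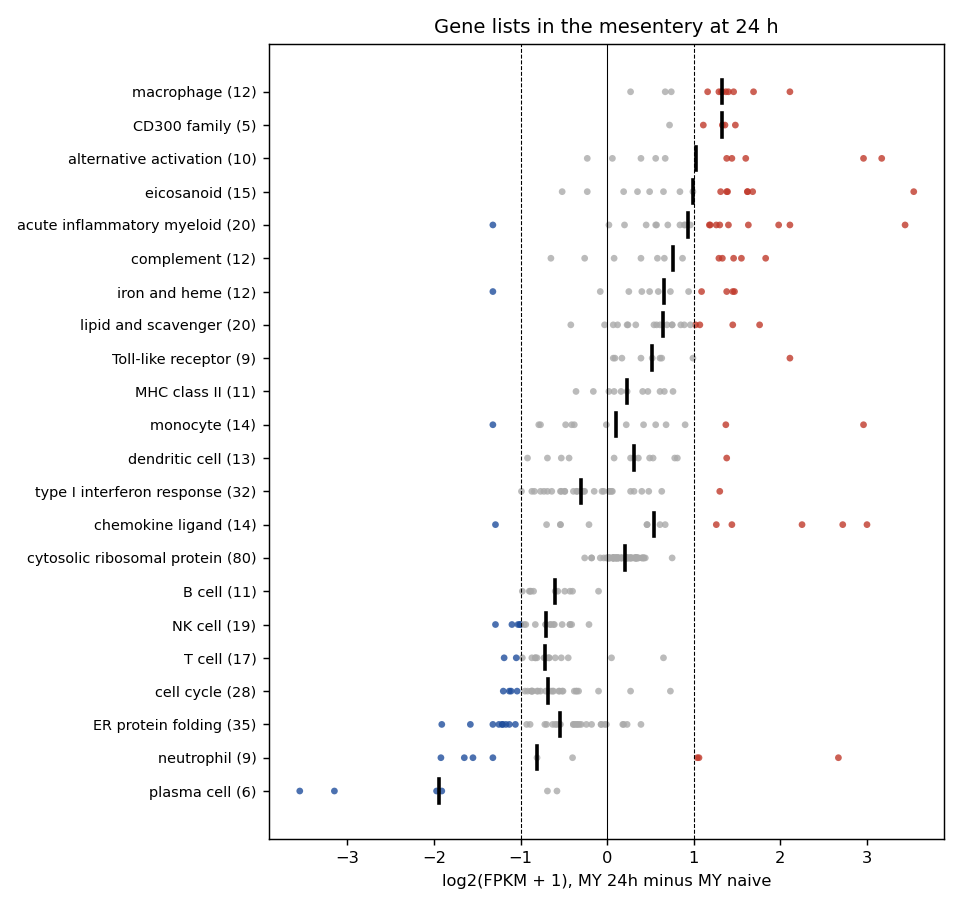
Difference in log2(FPKM + 1), MY 24h minus MY naive, for the genes at the level in each list shown (their number in brackets), 1 point a gene. The lists shown are a chosen part of the 63. Red points are at least 2-fold higher, blue points at least 2-fold lower, black bars are list medians and dashed lines mark 2-fold. Medians of the lists shown run from 1.33 for macrophage genes to -1.94 for plasma cell genes. Some lists not shown had higher medians, such as red cell and platelet genes (2.09) and pancreatic enzymes (2.26).

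None of 11 MHC class II genes was 2-fold changed (median 0.23), with H2-Aa at 3001 and 4732 FPKM (0.66) and Cd74 at 11323 and 13324 (0.23). None of 19 MHC class I genes was either (median 0.11, and -0.12 under upper quartile scaling), with B2m at 4833 and 4646 (-0.06). Of 32 type I interferon response genes at the level, Siglec1 alone was higher and none was lower (median -0.30); Isg15 was 69.59 and 41.47 FPKM (-0.73) and Ifi27l2a 306.6 and 153.8 (-0.99). Among 23 interferon gamma genes the median was -0.07, 19 were within 2-fold and 2 were higher, Gbp2b (63.83 and 133.0, 1.05) and Ubd (4.497 and 10.51, 1.07), and 2 were lower, Ifng (10.19 and 4.214, -1.10) and Tgtp1 (10.05 and 3.408, -1.33). Ubd reached the level at 24 h alone, and Ifng and Tgtp1 in naive alone. The direction of these 3 genes was therefore fixed in advance, and each was close to the edge of the level. None of 15 immune checkpoint genes, 80 oxidative phosphorylation genes, 80 ribosomal protein genes or 6 clock genes at the level was 2-fold changed. Their medians were 0.11, 0.09, 0.20 and 0.03, and all 4 fell below 0 under upper quartile scaling. Over all genes 2.98% were higher and 1.80% lower, so no changed gene in lists of 6, 11, 15 or 19 is near that share. For the type I interferon list, 1 of 32 higher and none lower is near it too.

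Globin and pancreatic enzyme transcripts were among the largest differences. The alpha globin genes Hba-a1 and Hba-a2 are near-identical copies whose reads cannot be told apart with certainty: Hba-a2 was 15.31 FPKM in naive and 200.9 at 24 h (3.63), and Hba-a1 30.55 and 0.5958 (-4.31). Their sum was 45.87 in naive, 201.5 at 24 h and 108.4 in MY 7d (2.11), and the beta globin sum was 50.58, 220.0 and 106.9 (2.10). Pancreatic acinar enzymes, listed after values were seen, had 6 of 30 genes at the level, all in the 24 h library alone. A rise was therefore fixed in advance for these 6, of which 5 were 2-fold higher. They included Cela2a, an elastase (1.776, 29.85 and 0 FPKM in MY naive, 24 h and 7 d, 3.47), and Pnlip, pancreatic lipase (0.9440, 10.13 and 0, 2.52). The 30 enzymes summed to 21.24 FPKM in MY naive, 152.1 in MY 24h and 9.507 in MY 7d, and to 238.0 in OM naive and 215.6 in OM 24h. Glycam1, a mucin of the high endothelial venules of lymph nodes, was 15.37, 55.07 and 6.795 FPKM in the mesenteric libraries (1.78) and 0.177 or less in OM naive and OM 24h. It was the only gene of 5 in its list to reach the level, and the 2 general endothelial genes that did, Esam (0.58) and Pecam1 (0.44), stayed within 2-fold. Without the red cell, platelet and pancreatic lists 195 genes remained higher, and without the plasma, B, T, NK cell and neutrophil lists 108 remained lower. No mesothelial or epithelial gene of 12 in the table and no collagen gene of 44 reached the level. The highest of the mesothelial and epithelial genes was at 6.88 FPKM in naive and 9.09 at 24 h, and the 44 collagens summed to 7.068 and 7.277.

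Short RNA genes, taken by symbol, gave the most extreme values and are the least certain, since FPKM is unstable for transcripts shorter than a fragment. Of 31 at the level, a count that includes the longer host gene Mir22hg (3.48 and 11.43 FPKM, 1.47), 14 were higher and 13 lower, and 10 were listed at 0 in naive and 9 at 0 at 24 h. Among the other genes none was listed at 0 in either library. Mir142, for example, was 28.90 FPKM in naive and listed at 0 in the other mesenteric and omental libraries.

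The same contrast in the omentum, which shares no library with it, had many more 2-fold differences: 901 of 7129 genes were higher (12.6%) and 497 lower (6.97%). Among 6209 genes at the level in both contrasts, 149 were higher in the mesentery, and 95 of these were higher in the omentum too, which is 63.8% of the mesenteric and 18.3% of the 520 omental genes. Of 88 genes lower in the mesentery, 37 were also lower in the omentum (42.0% of the mesenteric and 9.49% of the 390 omental genes). C1q summed to 1751 FPKM in OM naive and 11417 in OM 24h, and Csf1r was 131.9 and 569.8 there. The J chain was lower in the omentum as well, with Igj at 412.6 FPKM in OM naive and 103.7 in OM 24h. Whether the size of any difference differed between the tissues was not tested, with 1 library in each. Cd74, one of the most abundant transcripts elsewhere, is listed at 0 in OM 24h, so a listed 0 can be a failed estimate.

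**Figure D5:**
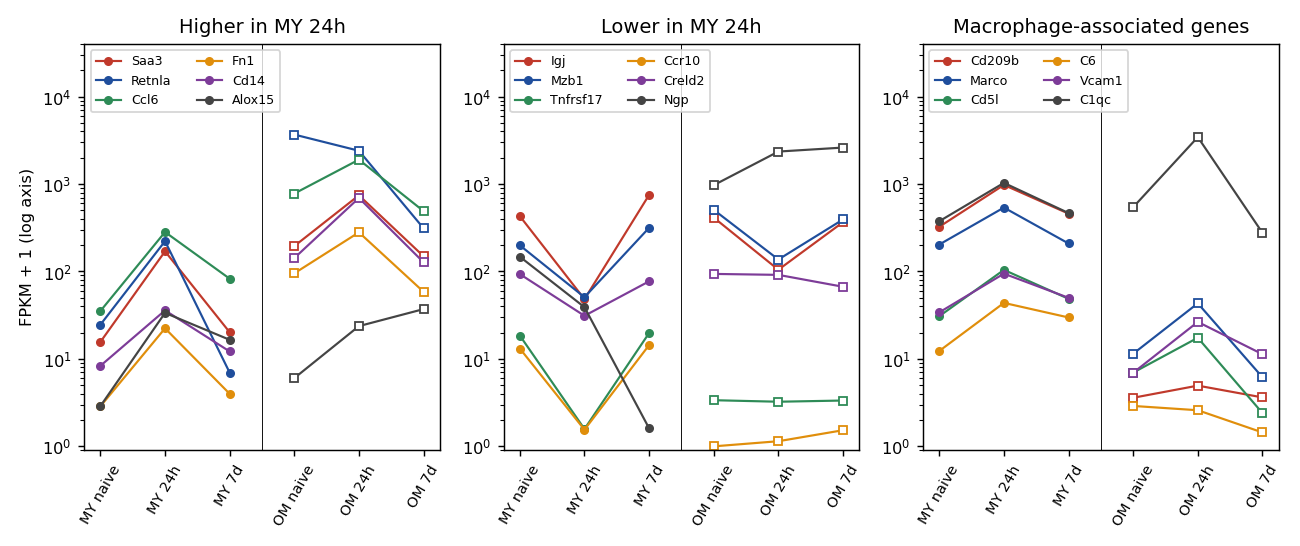
FPKM + 1 (log axis) of 18 genes in the 6 libraries, 1 value each. Filled circles are the mesenteric libraries and open squares the omental ones. Genes of the left panel were higher in MY 24h than in MY naive, genes of the middle panel were lower, and in the right panel Cd209b, Marco, Cd5l, C6 and Vcam1 lay higher in the mesentery than in the omentum at each time.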

How the data were processed

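Reads were passed by the authors through FastQC 0.11.4 and STAR 2.4.2a (mm9, with UCSC gene models), and FPKM per gene came from Cufflinks, deposited as 1 table with 1 column a library (0 columns belonged to no listed sample). Depth as counts is unknown, and FPKM are not counts, so no count test was run. The libraries' FPKM were used as deposited, on the log2(FPKM + 1) scale, which understates changes of low genes, by scripts in Python 3.11.15 (pandas 2.3.3, numpy 2.4.6, and matplotlib 3.10.9 for plots). With 1 library a side no test exists, and a 2-fold difference was counted. Counting and the estimate of relative depth were tested on simulated data, and list medians were not. The comparison, the 63 gene lists and the naming rule were chosen with earlier results of these data known, and 7 of the lists after these values were seen. The naming rule took, short RNA genes aside, the 20 genes furthest above and below naive. It also took, in each list, the 4 most abundant and the 2 furthest each way, and Ccl6 and Ccr1. Not all of these are described in the results: Mrap (2.73), Sapcd1 (2.58) and Eml2 (-2.14), for example, are not. Values had been seen when these further genes were picked: Mertk, Ncr1, Klra18, Cd209e, Lrg1, Slpi, Ccl3, Ccl4, Ccl17, Cxcl13, Isg15, Ltb4r1, Ltc4s, Tbxas1, Plin2, Hmox1, Slc11a1, Slc40a1, Mcm2, Ube2c, Mir142, the lower actin genes other than Was and Actr2, the lower protein folding genes other than Derl3, Creld2, Hsp90b1 and Calr, and the genes at the edge of the level or opposite between the tissues. Positions come from NCBIM37 with GENCODE M1, in which 1287 of 1336 genes looked up had 1 position, and promoters from RefSeq (GRCm38.p6). A planned search for the S, X and Y box sequences of MHC class II genes was not run. The alternatives were pseudocounts of 0.1 and 5, other level filters, 3 rescalings and other fold thresholds, plus removal of some marker lists, added after the data were seen.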

Additional observations from a re-analysis of the deposited data

Results flagged for a closer look

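In 13 genes the 24 h difference was at least 2-fold in both tissues and opposite in direction. These differences between the tissues were not tested, since each rests on 4 libraries without replicates. Of 9 genes lower in the mesentery and higher in the omentum, 4 encode neutrophil granule proteins: Ngp differed by -1.92 in the mesentery and 1.28 in the omentum, Ltf by -1.65 and 1.29, Camp by -1.55 and 1.55, and Lcn2 by -1.32 and 1.11. The same directions were seen for the linker histone Hist1h1b at -1.49 and 1.21, the cyclin gene Ccna2 at -1.20 and 1.13, and Ube2c, of the mitotic ubiquitin ligase, at -1.04 and 1.28. Psat1, of serine synthesis, was at -1.07 and 1.03, and Atp1b1, a sodium pump subunit, at -1.05 and 1.81. The opposite held for 4 genes. Fabp4, a fatty acid binding protein of adipocytes and macrophages, was at 1.07 in the mesentery and -1.54 in the omentum, the globins Hbb-b1 at 2.09 and -3.92 and Hba-a2 at 3.63 and -3.97, and the short RNA gene Mir8104 at 4.43 and -2.64. Such genes numbered 7 when the pseudocount was 5.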

How the results depend on the processing

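No paired analysis was possible because neither arm holds more than 1 library, and for the same reason no library could be left out. The count of 204 higher genes was 124 with a pseudocount of 5, 366 at an FPKM of at least 1, 135 at 20, 107 at 10 in both libraries, 127 under upper quartile scaling, 663 at 1.5-fold and 56 at 3-fold. The count of 123 lower genes was 72 with a pseudocount of 5, 199 at an FPKM of at least 1, 73 at 10 in both libraries, 191 at a sum of 1000000, 251 under upper quartile scaling, 484 at 1.5-fold and 24 at 3-fold. With a pseudocount of 5, the median of the 6 pancreatic enzymes at the level was 1.31, against 2.26 with the pseudocount of 1 used above. With a pseudocount of 5, genes higher in both tissues numbered 59, lower in both 24 and opposite 7. Lower in both was 74 at a sum of 1000000. The neutrophil median was 0.06 at an FPKM of at least 1. The causes were not tested, beyond the filters and thresholds admitting more or fewer genes. Of 1700 values of 340 named genes under 5 settings, 1678 stayed within 0.58 (log2) of the reported value and 0 called values changed sign. The 3 rescalings shift every gene by nearly the same small amount, so their 0 moved values were fixed in advance. All 22 values that moved did so when the pseudocount was changed, 6 at 0.1 and 16 at 5. The sign result is no check either, since changing the pseudocount cannot reverse a difference. Of 54 list medians, 10 changed sign in some setting. Depth limits low genes most, since 1 read weighs more there.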
